A study of Mus musculus with 6 samples.

Results

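The BCL-2 family genes were read in macrophages sorted from injured mouse muscle. The set was chosen by gene symbol and held 10 genes, which are the pro-survival genes Bcl2, Bcl2l1 and Mcl1, the effector genes Bax and Bak1, and the BH3-only genes Bcl2l11, Bid, Bbc3, Pmaip1 and Bad. A gene was taken where a probe set carried its symbol alone, which held for 9 of the 10 genes, out of 19938 genes with such a probe set. Each of the 9 had 1 probe set, so no choice among probe sets was needed. Bax was not analysed here.

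BCL-2 proteins decide whether the outer mitochondrial membrane is opened during apoptosis. The effectors BAX and BAK form the openings through which cytochrome c leaves. Pro-survival proteins (BCL-2, BCL-XL, MCL-1) hold the effectors and the BH3-only proteins in check, and BH3-only proteins, which share just the short BH3 helix, relieve that check or activate the effectors directly. In neutrophils MCL-1 and the related A1 proteins are known for keeping cells alive. BIM, the product of Bcl2l11, is known for ending the life of cells deprived of growth factors.

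Cells were taken 2 days after the tibialis anterior had been damaged by cardiotoxin, a snake venom protein that destroys muscle fibres and so starts their regeneration. CD45-positive cells were enriched on magnetic beads and sorted into a Ly6C- F4/80high and a Ly6C+ F4/80low subset, each from the same 3 mice, giving 3 arrays per subset. All mice were of the strain B6.129P2-Lyzstm1(cre)Ifo/J, so both subsets carried Cre recombinase at the lysozyme locus, which is active in myeloid cells. All 8 macrophage markers, among them Csf1r, Cd68 and Mertk, lay above the background level on every array.

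Values are log2 expression after RMA. Differences on that scale are those of Ly6C- F4/80high cells minus those of Ly6C+ F4/80low cells. A gene was called where the Benjamini-Hochberg adjusted p of limma, a moderated linear model, was under 0.05 over all 19938 genes. The background level, 5.44, was the 95th percentile of 1194 olfactory and vomeronasal receptor genes, most of which are silent outside sensory tissue. The number of arrays limits the precision, and levels of different genes cannot be ranked, since their probe sets differ. In sorted cells measured in bulk, fewer cells that express a gene and less RNA per cell cannot be told apart. The gates were matched by the genes of their antigens, with Adgre1, the gene behind the F4/80high gate, higher by 0.73 (SE 0.07, limma adjusted p = 4.46e-05) and 1 probe set shared by Ly6c1 and Ly6c2 at 8.02 ± 0.25 in Ly6C- F4/80high cells and 11.4 ± 0.12 in Ly6C+ F4/80low cells (SD, n = 3 each). Ptprc, the gene of the bead antigen CD45, was above background on every array. It was lower in Ly6C- F4/80high cells, at -0.64 (SE 0.07, limma adjusted p = 0.000127).

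Among the 9 genes, limma called 2 BH3-only genes lower and 1 pro-survival gene higher in Ly6C- F4/80high than in Ly6C+ F4/80low cells. Bcl2l11 was 1.81-fold and Pmaip1 1.76-fold lower, and Bcl2 was 1.31-fold higher. The other 6 genes did not pass the test, with differences between -0.10 and 0.17 and 0 of 6 at an unadjusted p under 0.05. The 3 called genes were 33.3% of the members. Of all genes 33.8% were called, 19.5% as higher and 14.3% as lower, and of the 12256 genes whose mean level lay above the background, as it did for all 9 members, 45.0% were called. The share called in the family was therefore near that of all genes and below that of the genes above background. With the arrays set to a common median, 4789 genes were higher and 1737 lower, against 3887 and 2861 here, and the same 3 members were called. The median difference was -0.05 in the family and -0.06 over all genes.

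**Figure D1:**
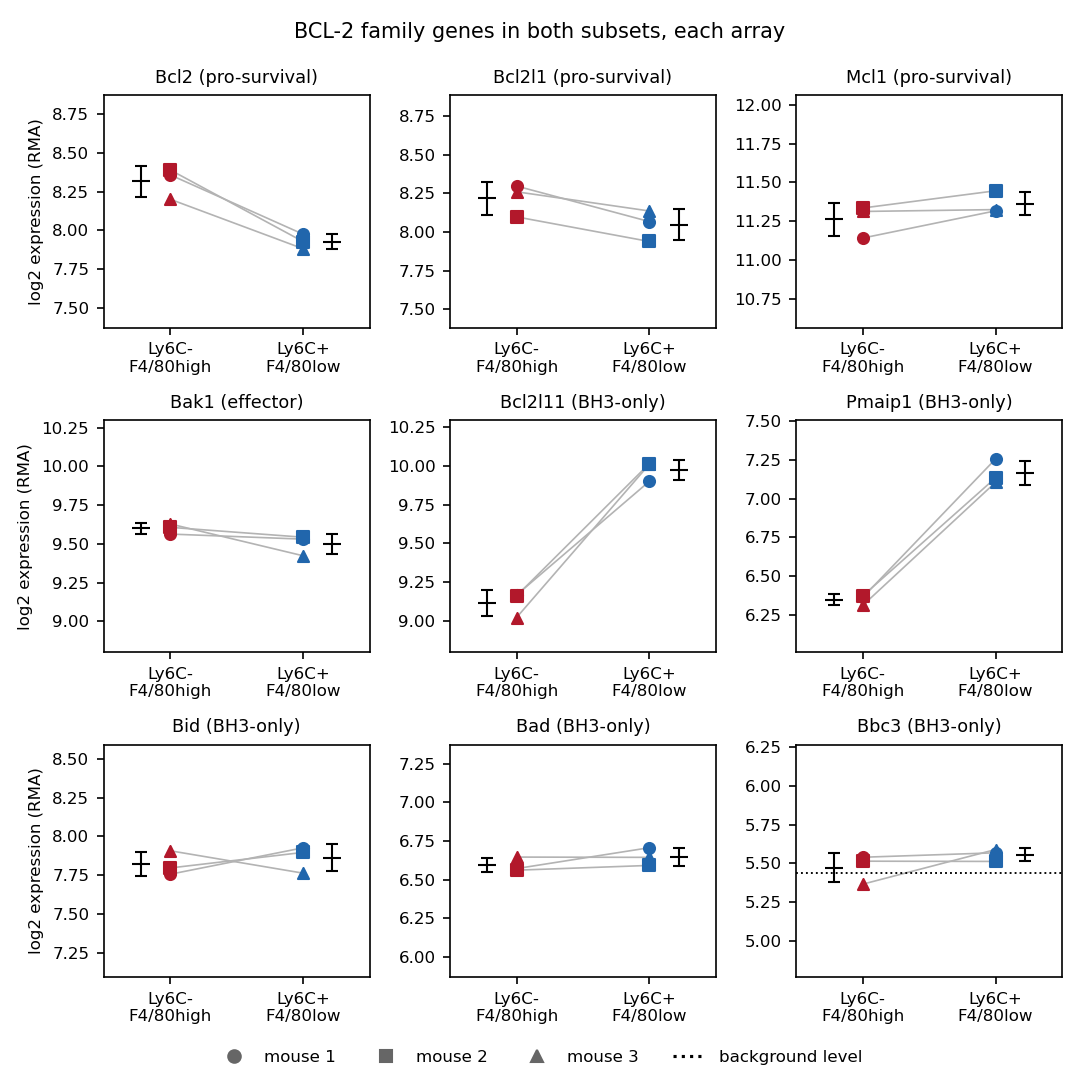
Log2 expression (RMA, vertical axes, each spanning 1.5 units) of the 9 genes on each array, with Ly6C- F4/80high cells at left in red and Ly6C+ F4/80low cells at right in blue. Symbols mark the mouse, grey lines join arrays of 1 mouse, black bars are the mean ± SD of 3 arrays, and the dotted line is the background level of 5.44. In each mouse Bcl2l11 and Pmaip1 had a lower value in Ly6C- F4/80high cells, by at least 0.73.

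Bcl2l11 encodes BIM, the BH3-only protein that binds every pro-survival member. It stood at 9.17, 9.16 and 9.02 in the Ly6C- F4/80high cells of mice 1, 2 and 3, against 9.90, 10.02 and 10.01 in their Ly6C+ F4/80low cells. The groups were separated by a gap of 0.73, far wider than the SD of 0.08 and 0.06 within them. The difference was -0.86 (SE 0.08, 95% CI -1.04 to -0.68, limma adjusted p = 3.14e-05), 1.81-fold lower. It was -0.73, -0.85 and -0.99 within mice 1, 2 and 3. A difference of at least that size was seen in 4.31% of all genes.

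Pmaip1 encodes NOXA, which binds MCL-1 and A1 and promotes the breakdown of MCL-1. Its levels were 6.36, 6.37 and 6.31 in the Ly6C- F4/80high cells, against 7.26, 7.13 and 7.11 in the Ly6C+ F4/80low cells. Again no array of 1 subset overlapped the other, and the nearest arrays were 0.73 apart. The difference was -0.82 (SE 0.08, 95% CI -0.99 to -0.65, limma adjusted p = 3.35e-05), 1.76-fold lower. Within mice 1, 2 and 3 it was -0.89, -0.76 and -0.79. All 6 arrays lay above the background level.

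Bcl2, the founding pro-survival gene of the family, was the single called member that was higher. Its levels were 8.36, 8.39 and 8.20 in the Ly6C- F4/80high cells, against 7.97, 7.93 and 7.88 in the Ly6C+ F4/80low cells. All 3 Ly6C- F4/80high arrays lay above all 3 of the others, by at least 0.23. The difference was 0.39 (SE 0.08, 95% CI 0.21 to 0.57, limma adjusted p = 0.00439), and it was 0.38, 0.46 and 0.32 within mice 1, 2 and 3. A difference of that size or more was seen in 20.4% of all genes.

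The other pro-survival genes did not pass the test. Bcl2l1, the gene of BCL-XL, stood at 8.30, 8.10 and 8.26 in the Ly6C- F4/80high cells, against 8.07, 7.94 and 8.14 in the Ly6C+ F4/80low cells. It was above its partner array in each of the 3 mice, but the subsets overlapped, and the difference of 0.17 (95% CI -0.02 to 0.37, limma adjusted p = 0.156) missed the threshold. Mcl1 encodes a short-lived protein that keeps neutrophils alive. It stood at 11.1, 11.3 and 11.3 in the Ly6C- F4/80high cells, against 11.3, 11.4 and 11.3 in the Ly6C+ F4/80low cells. Its difference of -0.10 (95% CI -0.29 to 0.09, limma adjusted p = 0.376) had an interval that reached no further than 0.29 in either direction.

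Bak1, the gene of the effector BAK, was at 9.56, 9.61 and 9.63 in the Ly6C- F4/80high cells, against 9.53, 9.54 and 9.42 in the Ly6C+ F4/80low cells. The arrays did not overlap, by a margin of 0.02, and the difference of 0.10 (95% CI -0.07 to 0.27, limma adjusted p = 0.314) was not called. With Bak1, Bcl2, Bcl2l11 and Pmaip1, the arrays of the subsets were apart for 4 of 9 members (44.4%), against 48.1% of all genes. The exact two-sided permutation p of each of these 4 was 0.1, the smallest that 3 arrays against 3 allow, and that of the other 5 lay between 0.2 and 0.7.

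The remaining BH3-only genes showed no called difference and no common direction among mice. Bid, whose product is cut by caspase-8 and links death receptors to mitochondria, was at 7.76, 7.80 and 7.91 in the Ly6C- F4/80high cells, against 7.93, 7.90 and 7.76 in the Ly6C+ F4/80low cells, a difference of -0.04 (95% CI -0.22 to 0.14, limma adjusted p = 0.708). Bad, whose product is silenced by phosphorylation when growth factors are present, was at 6.57, 6.56 and 6.65 in the Ly6C- F4/80high cells, against 6.71, 6.59 and 6.64 in the Ly6C+ F4/80low cells, a difference of -0.05 (95% CI -0.22 to 0.11, limma adjusted p = 0.589). Both genes overlapped between the subsets and differed in sign between mice. Bbc3, the gene of PUMA, a BH3-only protein induced by p53, was close to the background level. It was at 5.54, 5.51 and 5.37 in the Ly6C- F4/80high cells, of which 2 of 3 passed 5.44, against 5.57, 5.51 and 5.59 in the Ly6C+ F4/80low cells. No array passed 6.16, the 99th percentile of the receptor genes, so the difference of -0.08 (95% CI -0.26 to 0.09, limma adjusted p = 0.429) says little about PUMA transcripts.

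**Figure D2:**
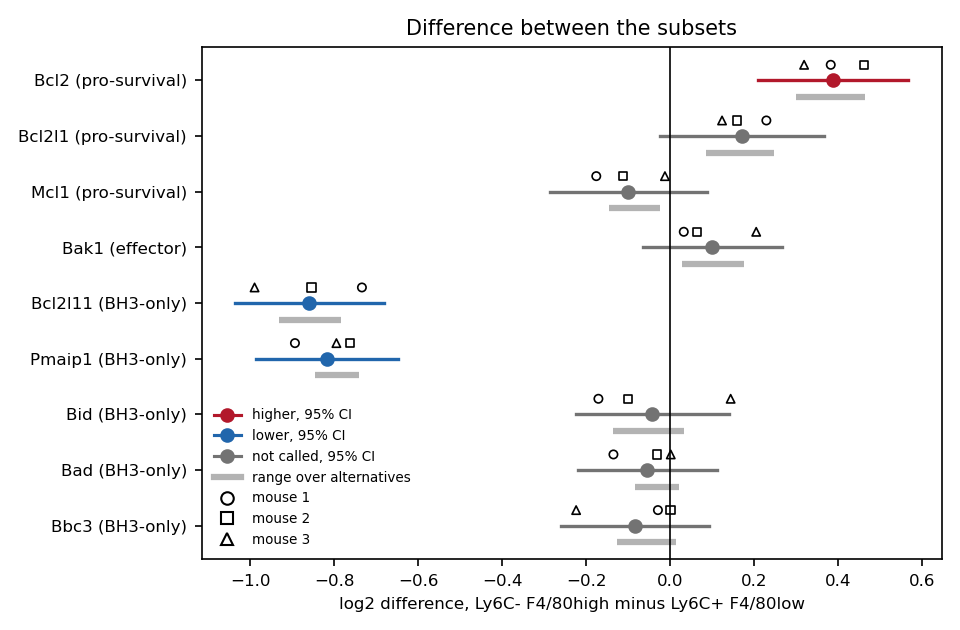
Log2 difference of each gene (horizontal axis, the Ly6C- F4/80high mean minus the Ly6C+ F4/80low mean), with the limma estimate and its 95% confidence interval, the differences within mice 1, 2 and 3 as open symbols above it, and the range over 18 alternative analyses (17 for Bbc3) as a grey bar below it. The intervals of Bcl2, Bcl2l11 and Pmaip1 lay clear of 0, those of the other 6 genes crossed it.

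By role, the BH3-only genes therefore had 2 of 5 members lower and none higher, and the pro-survival genes 1 of 3 higher and none lower. The single effector measured was not called. Of all genes 14.3% were lower and 19.5% higher, and of those above background 15.7% and 29.3%. Groups of 5 and 3 genes are too small to be set against these shares. Bcl2l11 and Bbc3 are textbook targets of FOXO factors, which switch on BH3-only genes when growth factor signalling falls. The sequence upstream of the members' start sites was searched for the FOXO motif GTAAACA on both strands. The motif was chosen with the promoter windows in view, so a match is no test of FOXO control. The windows were the 250 bases before each start site, from RefSeq on GRCm38.p6, of which 8 of the 9 members had 14; that of Pmaip1 was not analysed here. The motif was found upstream of 1 of the Bcl2l11 starts and 1 of the Bbc3 starts, and in 3.17% of 32851 windows of all genes. The windows with it are shown with the window of Bcl2, which has none, since the 3 genes differ in the comparison, as a lower, a not called and a higher gene. Each is given 5′ to 3′ on its gene's strand, with the motif in capitals.
Bcl2l11, chr2:128125788-128126037, plus strand: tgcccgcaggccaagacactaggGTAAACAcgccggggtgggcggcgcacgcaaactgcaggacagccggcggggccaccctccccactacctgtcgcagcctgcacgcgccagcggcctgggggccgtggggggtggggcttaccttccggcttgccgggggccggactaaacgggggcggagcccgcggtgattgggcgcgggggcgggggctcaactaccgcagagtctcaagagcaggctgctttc
Bbc3, chr7:16310011-16310260, plus strand: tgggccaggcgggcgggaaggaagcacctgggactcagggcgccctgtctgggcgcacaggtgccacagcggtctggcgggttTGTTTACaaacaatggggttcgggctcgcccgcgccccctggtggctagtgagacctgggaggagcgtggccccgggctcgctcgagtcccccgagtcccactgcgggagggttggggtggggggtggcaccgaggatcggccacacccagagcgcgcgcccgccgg
Bcl2, chr1:106714291-106714540, minus strand: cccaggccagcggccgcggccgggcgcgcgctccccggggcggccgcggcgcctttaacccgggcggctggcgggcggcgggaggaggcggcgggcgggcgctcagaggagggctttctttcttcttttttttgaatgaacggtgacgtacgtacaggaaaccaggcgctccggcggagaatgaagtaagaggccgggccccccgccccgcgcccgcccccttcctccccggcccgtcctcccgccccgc

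The motif began 227 bases before the Bcl2l11 start and 167 bases before the Bbc3 start. The other motifs searched, on both strands, were those of E2F (TTTGGCGC or TTTCCCGC, 1.3% of all windows), MYC (CACGTG, 6.02%), AP-1 (TGANTCA, 6.75%), C/EBP (TTGCGCAA, 0.164%), HIF (ACGTG, 16.6%) and ATF4 with CHOP (TGATGCAA, 0.791%). Among the 14 windows MYC and HIF matched in 1, another window of Bbc3, at overlapping letters, and the others matched in none of the 14. A match describes the letters of these windows and not binding.

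The other genes of the cell death pathway were read from 8 lists, of which 92 of 107 genes had a probe set of their own. Of these 92 genes 22 were higher (23.9%) and 23 lower (25%), beside 19.5% and 14.3% of all genes, with a median difference of -0.04 against -0.06 over all genes. Most lay above the background, and for the 84 whose mean did, 22 were higher (26.2%) and 21 lower (25%), beside 29.3% and 15.7% of all genes above it, or 51.2% called in all beside 45.0%. With a common median 30 were higher and 18 lower, and without mouse 3 the number called was 28 in place of 45.

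Among close relatives of the members, none of 3 other pro-survival genes was called by limma (1 at an unadjusted p under 0.05, Bcl2a1c, whose near-identical copies could bind its probes and which was called higher in 2 of 18 alternatives, with a common median and without mouse 2), and 1 of 8 other death-promoting genes was higher and 3 were lower. Bnip3l, which marks mitochondria for removal by autophagy, was at 11.7 ± 0.07 in the Ly6C- F4/80high cells and 10.8 ± 0.07 in the Ly6C+ F4/80low cells (SD, n = 3 each), higher by 0.88 (SE 0.08, limma adjusted p = 2.54e-05). Its paralogue Bnip3, a target of hypoxia signalling, differed the other way, by -0.68 (SE 0.17, limma adjusted p = 0.0116), a call that was lost without mouse 2 (limma adjusted p = 0.0578) and with all probe sets tested. Bik, a BH3-only gene, was lower at -0.41 (SE 0.08, limma adjusted p = 0.00260). The third lower gene, Bcl2l14, was not above background on any array, and its call (limma adjusted p = 0.0359) was lost in 13 of 16 alternatives, among them the mouse as a block (limma adjusted p = 0.0543).

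The list drawn as downstream of BAX and BAK also held the channel genes Vdac1, Vdac2 and Vdac3 and the membrane-shaping genes Opa1 and Dnm1l. Of its 18 genes 8 were higher and 3 lower, with a median of 0.16. The higher genes were these channel and membrane-shaping genes with Htra2, Aifm1 and Dffa. Cycs, Casp9, Casp6, Diablo, Xiap, Birc2 and Endog were not called. Without mouse 3 the number higher was 5, and without mouse 1's Ly6C+ F4/80low array the number lower was 5. Vdac1, the main channel of the outer mitochondrial membrane, was higher by 1.05 (SE 0.08, limma adjusted p = 7.44e-06), and Opa1, which shapes the inner membrane folds, by 0.60 (SE 0.07). Apaf1, the scaffold of the apoptosome, was lower at -0.39 (SE 0.07, limma adjusted p = 0.00250), and Birc3, the gene of the ubiquitin ligase cIAP2, at -0.91 (SE 0.12, limma adjusted p = 0.000303). The higher genes included all 3 Vdac channel genes, which serve metabolite transport in living cells, though the call of Vdac3 was lost in 5 of 18 alternatives.

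The death receptor list held 1 higher and 4 lower genes of 12, with a median of -0.06. That median was -0.11 without mouse 1's Ly6C- F4/80high array and 0.01 with a common median, where 2 genes were higher and 4 lower. Fas, a receptor that starts apoptosis, was at 6.69 ± 0.06 in the Ly6C- F4/80high cells and 7.53 ± 0.16 in the Ly6C+ F4/80low cells (SD, n = 3 each), a difference of -0.84 (SE 0.09, limma adjusted p = 0.000106). Ripk3, the kinase of necroptosis, differed by -0.78 (SE 0.09). Fadd, the adaptor that joins Fas to caspase-8, went the other way at 0.84 (SE 0.10, limma adjusted p = 0.000176).

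Of 13 p53 pathway genes 7 were higher and 1 lower, with a median of 0.35. The list held 15 genes, of which Trp53 and Cdkn1a had no probe set of their own. The median was 0.26 after a repeated quantile normalization, and 0.24 without mouse 3, where 5 genes were higher and none lower. Sesn1, a p53 target that restrains mTORC1, was higher by 0.97 (SE 0.15, limma adjusted p = 0.000849), and Zmat3, an RNA-binding p53 target, by 0.89 (SE 0.10, limma adjusted p = 8.33e-05). Sesn2, a relative of Sesn1 that responds to nutrient stress, differed by -0.49 (SE 0.11), and its call was lost without mouse 3 (limma adjusted p = 0.0741) and without mouse 2. Bbc3 and Pmaip1 are p53 targets as well, the first not called and the second lower, beside the 7 higher genes of this list.

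In a list of 12 genes, most of them transcription factors known to drive BH3-only genes, 1 was higher and 4 were lower. Without mouse 1's Ly6C- F4/80high array, or without mouse 1, 2 were lower. E2f1, which drives S phase and can induce BH3-only genes, was higher by 0.89 (SE 0.07, limma adjusted p = 1.24e-05). Cebpb, a myeloid factor, was lower at -0.67 (SE 0.10) and Hif1a, the oxygen-regulated factor, at -0.50 (SE 0.09). None of the 3 FOXO genes passed the test (1 had an unadjusted p under 0.05), with Foxo1 at -0.22 (95% CI -0.40 to -0.04, limma adjusted p = 0.0561, called lower in 6 of 18 alternatives), Foxo3 at 0.10 (limma adjusted p = 0.385) and Foxo4 at 0.02 (limma adjusted p = 0.829).

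The genes that set the lifetime of MCL-1 and BIM held 3 higher and no lower members of 9. Btrc, which encodes a ligase subunit that binds phosphorylated BIM and MCL-1, was higher by 0.47 (SE 0.08, limma adjusted p = 0.00154), and Bag1, a BCL-2-binding cochaperone, by 0.50 (SE 0.09). Of 17 survival signalling genes 1 was higher and 8 were lower, with a median of -0.25. With a common median 3 were higher and 5 lower. After a repeated quantile normalization or cyclic loess 10 were lower and none higher. Csf2rb, the signalling chain of the GM-CSF receptor, was lower at -0.62 (SE 0.09, limma adjusted p = 0.000526) and Stat3 at -0.57 (SE 0.08). Csf1r, the receptor of the main macrophage survival factor, differed by -0.18 (95% CI -0.36 to -0.01, limma adjusted p = 0.0995) and was not called, but was in 2 of 18 alternatives. Ppp3ca, a calcineurin subunit gene, was the single higher member at 0.28 (SE 0.08), a call that was lost in 9 of 18 alternatives, and without mouse 3 the list held 3 lower genes and no higher one. It held 5 lower genes without mouse 1's or mouse 3's Ly6C- F4/80high array or mouse 2's Ly6C+ F4/80low array.

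**Figure D3:**
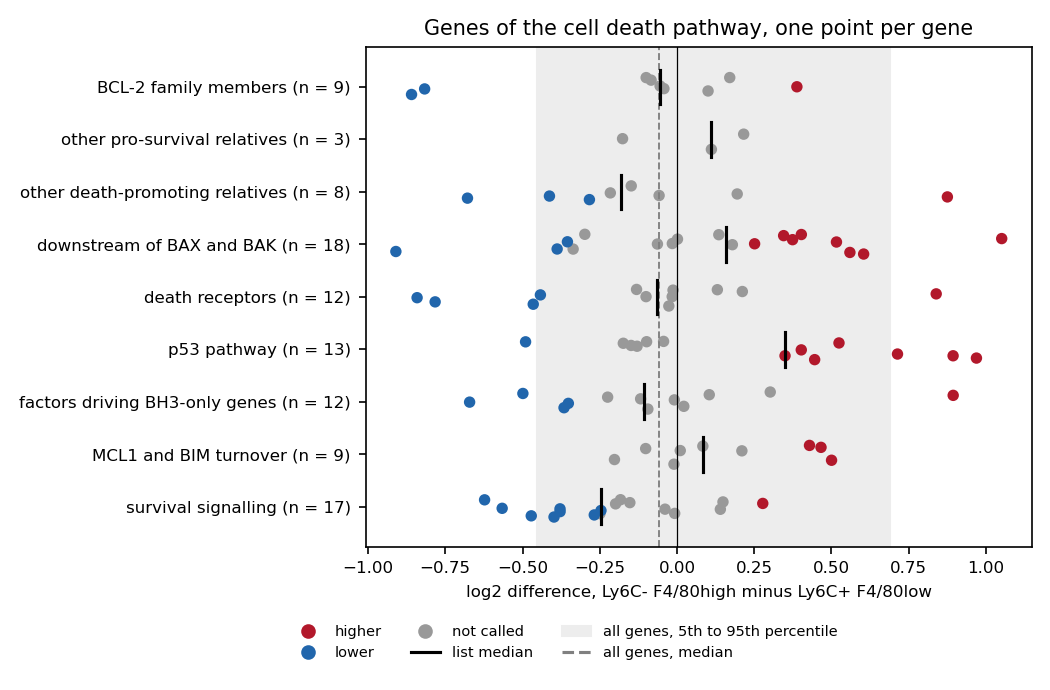
Log2 difference (horizontal axis, the Ly6C- F4/80high mean minus the Ly6C+ F4/80low mean), with 1 point per gene in red (higher), blue (lower) or grey (not called), the vertical scatter within a row being random. Black bars are list medians, the grey band runs from the 5th to the 95th percentile of all genes (-0.45 to 0.69) and the dashed line is their median of -0.06. Bcl2l11 and Pmaip1 lie outside the band, and the p53 list has the highest median.

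Of the 8 macrophage markers limma called 3 higher, Mertk at 1.57, Adgre1 at 0.73 and Cd68 at 0.31. It called 3 lower, Cd14 at -0.42, Fcgr1 at -0.28 and Itgam at -0.23. With a common median 4 were higher and 1 lower, and without mouse 3 there were 2 and 1. Markers of other cell types moved with Bcl2l11 and Pmaip1 in part. Of 8 dendritic cell markers limma called 5 lower and none higher, and their summed level was 8.39 to 8.45 in Ly6C- F4/80high cells, against 8.92 to 9.01 in the Ly6C+ F4/80low cells (log2 of the summed signal). Cd209a, found on monocyte-derived dendritic cells, was lower at -1.19 (SE 0.08, limma adjusted p = 4.81e-06) and Ccr7, the receptor of migrating dendritic cells, at -0.38 (limma adjusted p = 0.0153), both above background on all 6 arrays. Flt3 (-0.67) and the plasmacytoid marker Siglech (-0.72) were also lower and were above background on all 3 Ly6C+ F4/80low arrays and no Ly6C- F4/80high array. Kit, which is not particular to dendritic cells, was lower at -0.36 under the background, and Zbtb46 was not called (-0.25, limma adjusted p = 0.0879). Clec9a and Xcr1, which define a major dendritic cell type, were not above background on any array. The number lower was 3 with all probe sets tested, and without mouse 3, its Ly6C- F4/80high array or mouse 2's Ly6C+ F4/80low array. Of 8 fibroblast and endothelial markers 7 were lower, with a summed level of 9.04 to 9.16 in Ly6C- F4/80high and 9.63 to 9.84 in Ly6C+ F4/80low cells, led by the endothelial gene Cdh5 at -1.51 (SE 0.10). The number lower was 4 with a common median, with all probe sets tested, without mouse 1 or mouse 3, and when 1 array was left out (mouse 1's or 3's Ly6C- F4/80high, or mouse 1's Ly6C+ F4/80low). Of the other endothelial genes Pecam1 was lower at -0.82 and Kdr was not called (0.11, limma adjusted p = 0.53). Dcn, lower at -1.14, stood at 6.79, 5.70 and 5.55 in the Ly6C+ F4/80low cells of mice 1, 2 and 3. Col3a1, lower at -0.40, overlapped between the subsets and differed in sign between mice. Of 12 neutrophil markers 3 were lower, with a summed level of 10.04 to 10.08 in Ly6C- F4/80high and 10.07 to 10.15 in Ly6C+ F4/80low cells, and the number lower was 5 without mouse 2's Ly6C- F4/80high array. S100a9, a calcium-binding protein gene abundant in neutrophils and monocytes, was lower at -0.70 (SE 0.11, limma adjusted p = 0.000681) and above background on all 3 Ly6C+ F4/80low arrays and no Ly6C- F4/80high array. S100a8, Csf3r and Mmp9 were above background on all 6 arrays and not called. Their differences were 0.30 (limma adjusted p = 0.0916), -0.04 (limma adjusted p = 0.68) and 0.18 (limma adjusted p = 0.294). S100a8 was thus opposite in sign to S100a9, in each of the 3 mice, though its arrays overlapped between the subsets. The other 2 lower genes, Cxcr2 and Ly6g, were among 7 of the 12, with Elane, that were not above background on any array. The T and NK cell list had 1 lower gene of 9, the eosinophil and mast cell list 1 of 8 and the muscle list 2 of 8, and the B cell list had 1 higher gene of 5. The muscle list held 1 lower gene without mouse 1, 2 or 3, the T and NK cell list 3 without mouse 2 and the eosinophil and mast cell list 2 without mouse 2 and none without mouse 1 or 3. Over single arrays and mice left out, these 3 lists held 1 to 2, 1 to 3 and 0 to 2 lower genes. The beads enriched cells with CD45, which leukocytes carry and fibroblasts, endothelial cells and muscle cells do not. How many cells of each type passed the beads and the gates was not measured. The part of any of these cells in the differences of Bcl2, Bcl2l11 and Pmaip1 was not tested.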

How the data were processed

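RNA of 6 sorted samples (150 ng each) was hybridised to Affymetrix arrays, per the labels' protocols. The authors processed the arrays with RMA and deposited log2 values, 1 per probe set, per the submitters' processing notes. RMA's software and settings are not stated there, and the scale was read off the range of values. Probe sets were named from the platform annotation (21789 of 35556 had 1 symbol), and a symbol was represented by its probe set with the highest mean. RefSeq, assembly GRCm38.p6, gave current names and sequences; the arrays name no build. Levels were judged against the receptor genes' percentile, set with earlier results known.

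The model was fitted by limma 3.58.1 under R 4.3.3, with lmFit and a plain eBayes prior, no filter and two-sided tests, and was tested on simulated data. The members and lists were chosen with earlier results of these data known, and no list was tested as a set. Named were all members and, of each pathway list, up to 2 called genes per direction with the largest differences and the same sign in all 3 mice; Bcl2l14, the FOXO genes, Csf1r, Bcl2a1c, the Vdac genes as a group and single markers were added after their values were seen. So were the share called among genes above background and, with the promoter windows in view, the motifs.

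Both subsets came from the same mouse, per the labels, so the mouse number pairs the arrays. Across genes, paired arrays' deviations from their group mean had correlations of 0.033, -0.084 and 0.087 (mice 1, 2 and 3). The labels state no paired test, and the mouse as a block was an alternative. The others were 3 normalizations, filters leaving out the lowest 25% or 50% of genes, averaging a gene's probe sets, testing every probe set, a trended robust prior, and fits without each array or mouse. The labels name no batch.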

Additional observations from a re-analysis of the deposited data

How the results depend on the processing

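Bcl2, Bcl2l11 and Pmaip1 were called in the same direction under all 18 alternatives, with differences of 0.30 to 0.46, -0.93 to -0.78 and -0.85 to -0.74 and highest limma adjusted p of 0.0372, 0.00174 and 0.00148. No other member was called under any of them, though Bbc3 was left out by the 50% filter. Differences near 0 changed sign for Bad with a common median (0.022), for Bid with a common median (0.034) and without mouse 1 (0.022, in a range of -0.136 to 0.022 without single arrays or mice), and for Bbc3 after repeated quantile normalization (0.0085) and cyclic loess (0.015); the cause was not tested. With the mouse as a replicate block 3 members, 44 pathway genes and 6164 genes in all were called, against 3, 45 and 6748 without it, and no member's call changed. Of the pathway genes the text names, Bcl2l14 lost its call with the block (limma adjusted p = 0.0543). Leaving out arrays or mice gave 3 members in each case, 28 to 47 pathway genes and 3998 to 6887 genes in all, the lowest without mouse 3, where 2 arrays per subset remain. The background level was 5.06 at the 90th and 6.16 at the 99th percentile of the receptor genes, and at 6.16 all arrays of Bbc3 lie under it. Arrays give no read depth, and signal close to background limits what can be said of Bbc3. The arrays are 3 mice of 1 strain at 1 time after injury. Transcript levels say nothing of protein levels, of the breakdown of MCL-1 and BIM or of the phosphorylation that silences BAD.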

Other observations

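The A1 proteins, pro-survival relatives of MCL-1 in myeloid cells, come from near-identical genes that share probe sets; of them Bcl2a1c alone has a probe set under its own symbol and is counted above. On 3 probe sets shared by Bcl2a1a, Bcl2a1b, Bcl2a1c and Bcl2a1d, which were looked at after the other values were seen and were tested with all 35556 probe sets, the levels averaged 9.48, 9.35 and 9.48 in the Ly6C- F4/80high cells and 9.36, 9.15 and 9.35 in the Ly6C+ F4/80low cells. The differences were 0.13 (SE 0.08), 0.20 (SE 0.07) and 0.13 (SE 0.07), none of them called (limma adjusted p = 0.308, 0.0957 and 0.258, with 1 of 3 at an unadjusted p under 0.05). Which of the 4 genes gave the signal cannot be told apart on these probes.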
